A study of Mus musculus with 13 samples.

Results

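The mouse Zfp genes analysed here are the zinc finger genes whose symbol is Zfp followed by a number and which were well counted in single oocytes. Symbols of that form, without Zfp36 and Zfp57, numbered 372 in the count tables, and the 177 with a mean count of at least 50 over all 13 libraries were kept. Of the remaining 195 symbols, 12 had no count in any library. The 177 genes are part of 18939 symbols in the count tables, of which 8166 reached the same mean count. The members were thus chosen by their mean count over all groups. Each library was 1 oocyte of a C57BL/6 female aged 3 to 4 weeks, taken 48 h after PMSG, injected with FBL–GFP mRNA and classed by its nucleolus after 6 h in Cilostamide, an inhibitor that holds meiosis at the germinal vesicle (GV) stage. NSN oocytes have a nucleolus without a ring of chromatin, and SN oocytes have a surrounded nucleolus. There were 3 SN GV, 3 NSN GV, 4 SN-MII and 3 NSN-MII libraries, the MII oocytes being those that matured in culture after release from Cilostamide. Injection and Cilostamide were common to all 4 groups, so no group was an untreated control. NSN-MII oocytes were only those NSN oocytes that reached MII. The labels number the oocytes within a group but name neither females nor cultures, so the tests below measure the spread between these oocytes.

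C2H2 zinc finger proteins bind DNA, and less often RNA, through repeated fingers in which cysteines and histidines hold a zinc ion. Many of them carry a KRAB box, which recruits the corepressor TRIM28 (KAP1) and with it SETDB1, heterochromatin protein 1 and histone deacetylases, and KRAB zinc finger proteins are best known for silencing retroelements and for keeping imprints after fertilization. A fully grown oocyte transcribes little during maturation. Its stored mRNAs are degraded or have their poly(A) tails lengthened or shortened. The SMART-seq2 protocol primes on poly(A), so that more RNA and a longer tail cannot be told apart in these values.

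The unit the proteins share, and the way near-identical units limit read counting, can be seen in the coding sequence. The first 2 lines give the first finger of Zfp61, which had one of the largest falls between the stages, and of Zfp445, which had one of the largest rises. Capitals mark the codons of the 2 cysteines and 2 histidines (mm10, GENCODE M21 transcripts, chr7:24291726-24291788, minus strand, and chr9:122853399-122853461, minus strand).
Zfp61: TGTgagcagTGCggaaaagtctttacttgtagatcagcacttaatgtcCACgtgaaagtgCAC
Zfp445: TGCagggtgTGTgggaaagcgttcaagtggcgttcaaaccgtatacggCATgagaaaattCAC
The next 2 lines give the first finger of Zfp960 (chr17:17087503-17087565, plus strand) and of Zfp97 (chr17:17144718-17144780, plus strand), 2 neighbours on chromosome 17 whose 63 bases differ at 1 base, in capitals.
Zfp960: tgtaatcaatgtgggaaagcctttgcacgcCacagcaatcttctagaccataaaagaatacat
Zfp97: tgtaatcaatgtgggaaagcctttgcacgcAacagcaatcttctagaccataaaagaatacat
In Zfp600 (chr4:146195520-146195582, plus strand) and Zfp978 (chr4:147390772-147390834, plus strand) the first finger was the same in all 63 bases, so it is shown once.
Zfp600: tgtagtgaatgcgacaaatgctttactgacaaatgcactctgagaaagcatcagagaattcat
Reads inside such windows were divided between genes by the authors' counting program. Of the 177 genes, 86 had a count that was not a whole number in at least 1 library and 22 in all 13, and 34 shared at least 10% of their 50-base stretches with another gene. Zfp960, Zfp97, Zfp600 and Zfp978 were among the 22, and their values are uncertain for that reason. Exons of 57 of the 177 overlapped those of another gene, and the sources do not state that the counting used strand.

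Total counts were between 7140416 and 8846287 per library. The number of genes with a count was 12699 to 13342 in GV oocytes and 11593 to 12522 in MII oocytes. The 12 oocyte markers (Zp3, Gdf9, Bmp15 and others) summed to 17040 to 24659 CPM (counts relative to library size, corrected with trimmed mean of M values factors). The 14 cumulus and granulosa markers summed to 44.9 to 81.3 CPM in GV and 93.4 to 173 CPM in MII oocytes, of which Cyp19a1 made up 37.8 to 67.3 and 77.1 to 158 CPM. Foxl2 and Ptx3 of that list were at 0 in every library. The zona pellucida had been removed before lysis. Of 5 blood and stroma markers, 4 were in the tables, and their sum of 53.1 to 78.3 CPM in GV and 117 to 175 CPM in MII oocytes was nearly all Pecam1. What part these markers had in the stage differences was not tested.

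Per length, the Zfp genes were low. Their median of the mean FPKM (fragments per kilobase of transcript, scaled to the reads mapped) was 8.15, against 18.5 for the other 7989 genes that reached the same mean count. Of the 177 genes, 105 lay under 10 FPKM and 18 reached 50. The highest was Zfp410, an activator of the chromatin remodeler gene Chd4, with a mean of 457 FPKM over all oocytes. It had 349 ± 138, 484 ± 222, 562 ± 166 and 397 ± 213 FPKM (SD) in SN GV, NSN GV, SN-MII and NSN-MII oocytes. The ranges of all 4 groups overlapped. Zfp655, a KRAB gene, had 228 ± 15.8, 207 ± 37.6, 285 ± 8.07 and 311 ± 9.51 FPKM in the same order, and Zfp957 had 146 ± 3.12, 154 ± 25.2, 243 ± 22.6 and 227 ± 8.52 FPKM. Both were higher in every MII group mean than in every GV group mean. Zfp296, a protein partner of KLF4 in embryonic stem cells, went the other way, with 356 ± 25.7, 366 ± 23.2, 31.3 ± 3.498 and 33.0 ± 8.47 FPKM. At GV only Zfp410 had group means near its own, and at MII it was far under Zfp655, Zfp957 and Zfp706. Zfp706, a small protein with a single finger, had 109 ± 11.5, 105 ± 11.7, 229.7 ± 25.2 and 256 ± 40.0 FPKM. In the order of mean FPKM, Zfp957 (197), Zfp296 (184) and Zfp706 (179) lay closer together than the spread of each over the oocytes.

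Between the stages, the Zfp genes split nearly evenly. Log2 fold changes are given ± SE from the fit. With edgeR's quasi-likelihood test of MII minus GV (mean of the SN and NSN contrasts, Benjamini-Hochberg adjustment over 11375 genes), 59 of 177 rose and 62 fell, and 56 did not pass. This is 68.4% of them, and 68.5% of all genes tested passed, 31.7% higher and 36.8% lower. Among the 7989 other genes with the same mean count 77.9% passed, 40.5% higher and 37.4% lower, against 33.3% and 35.03% of the Zfp genes. The median log2 fold change of the Zfp genes was 0.0039 (quartiles −1.15 and 0.84), beside −0.10 for all genes tested and 0.13 for the other genes with that mean count. The groups of 6 GV and 7 MII oocytes did not overlap in CPM for 86 of the Zfp genes (44 higher and 42 lower), or 48.6%, and for 47.4% of all genes tested. Both shares lay close to those of all genes tested. They lay under those of the other genes with the same mean count, of which 58.0% did not overlap.

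The mean count over all libraries lets in genes that reach 50 at 1 stage alone: 139 reached it at both stages (53 rose, 37 fell), 31 at GV only (25 fell) and 7 at MII only (6 rose). The last 2 kinds entered through the stage at which they were high, so that their directions are no result. Sizes are therefore given for the 139, as a description, since a minimum at both stages in turn leaves out genes that fell far. Of the 139, 38.1% were called higher and 26.6% lower. Among the 6691 other genes that reached 50 at both stages, 45.8% were called higher and 29.4% lower. Falls of 2-fold or more were called for 26 of the 139 (18.7%), of 4-fold or more for 5 (3.6%) and of 8-fold or more for 1 (0.719%, Zfp296). Over the 6691 other genes that reached 50 at both stages these shares were 21.6%, 10.6% and 3.74%. Rises of 2-fold or more were called for 35 of the 139 (25.2%) and 28.1% of the other genes, and rises of 4-fold or more for none and 0.493%. The 59 genes that rose summed to 2480 to 3680 CPM per GV oocyte and 6132 to 7836 per MII oocyte, and the 62 that fell to 3196 to 3778 and 962 to 1188 CPM. These sums follow from the calls. The sum over all 177 was 9142 ± 717 CPM (SD, n = 6) at GV and 10700.3 ± 978 (SD, n = 7) at MII, while their share of the raw counts was 1.02% ± 0.0304 and 0.968% ± 0.0246. The 2 measures go in opposite directions and differ only in the scaling factors. With library totals in place of those factors the split of the calls was 49 higher to 73 lower, the median of all genes moved from −0.10 to −0.39 and that of the Zfp genes from 0.0039 to −0.28.

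**Figure D1:**
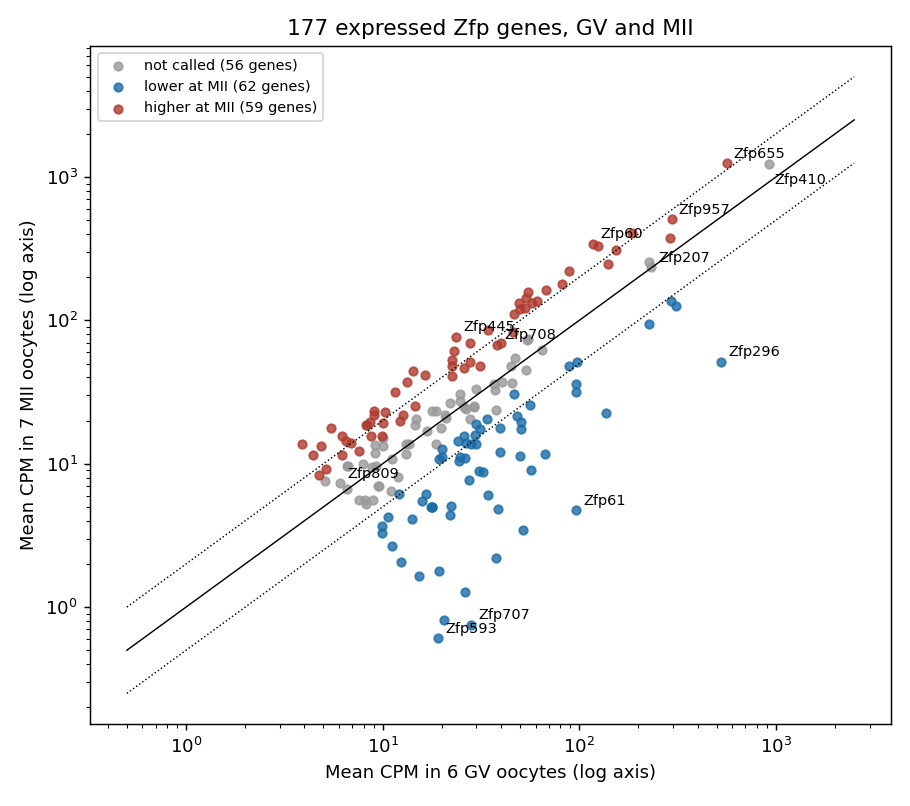
Mean CPM of each of the 177 Zfp genes in 6 GV oocytes (horizontal, log axis) and 7 MII oocytes (vertical, log axis). The solid line marks equal means and the dotted lines 2-fold differences. The 59 genes called higher follow the upper dotted line. Of the genes far below the lower one, Zfp593 and Zfp707 are among the 31 that reached a mean count of 50 at GV only. Zfp296, also far below it, reached that count at both stages.

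The largest called falls without overlap were those of Zfp707, Zfp593, Zfp524, Zfp61, Zfp28 and Zfp433, and 4 of them carry a KRAB box. All 6 had mean counts under 50 at MII and entered through GV alone, so they had to be lower at MII and are given as a description of the levels. Zfp61 (chr7:24291039-24301232, minus strand) had 95.3, 110.1 and 93.0 CPM in the 3 SN GV oocytes and 86.1, 83.1 and 113 in the 3 NSN GV oocytes. It had 4.64, 5.27, 5.13 and 5.32 CPM in the 4 SN-MII oocytes and 3.93, 4.08 and 4.73 in the 3 NSN-MII oocytes. Every GV oocyte was far above every MII oocyte, and within a stage the 2 types overlapped. The log2 fold change was −4.38 ± 0.17, 20.8-fold lower at MII (adjusted p = 1.1e-11), with counts of 28 to 41 behind each MII value. Zfp593, a factor of large ribosomal subunit assembly, had 13.01, 11.1 and 21.7 CPM in SN GV, 27.2, 26.9 and 15.4 in NSN GV, 0.398, 0.771, 0 and 1.4995 in SN-MII and 0.595, 0.990 and 0 in NSN-MII oocytes. It was at 0 in 2 MII oocytes and had at most 11 counts in any, so that its log2 fold change of −4.91 ± 0.54 is loosely set (adjusted p = 5.3e-07). Its exons overlap those of E130218I03Rik on the opposite strand. Zfp524, a 4-finger protein, had 16.3 to 29.8 CPM in GV and 0 to 2.12 in MII oocytes, with 0 to 16 counts per MII oocyte (−4.85 ± 0.54, adjusted p = 7.3e-07). It overlaps Fiz1 on the opposite strand and Gm44973 on the same strand, and 46.0% of its 50-base stretches occur in another gene.

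Zfp28, a KRAB gene, shares 16.01% of its 50-base stretches with Gm3203 and had 22.1 to 30.4 CPM (median 26.3) in GV and 0 to 3.08 CPM (median 0.866) in MII oocytes (−4.32 ± 0.50, adjusted p = 9.2e-07). Zfp433, which shares 94.1% of its 50-base stretches with other genes, had 22.7 to 48.8 CPM (median 37.9) and 0 to 7.14 CPM (median 1.67) (−4.30 ± 0.43, adjusted p = 2.1e-07). Zfp707, a KRAB gene, differed most between oocytes of 1 stage. It had 2.295, 4.50 and 46.8 CPM in SN GV, 82.0, 31.3 and 2.28 in NSN GV, 0.398, 0.514, 0.131 and 0.409 in SN-MII and 0.714, 2.10 and 1.01 in NSN-MII oocytes. At GV, 3 oocytes were at 2.28 to 4.50 CPM and the other 3 at 31.3 to 82.0 CPM, with both types in each set. The lowest GV oocyte was barely above the highest MII oocyte, and leaving out SN GV oocyte 3 took the log2 fold change from −5.23 to −4.03. Its within-group SD at GV was 2.23 on the log2(CPM + 1) scale, against a median of 0.354 over the Zfp genes. Among the genes with a mean count of 50 at both stages, Zfp296 had the largest called fall. It had 499, 569 and 501 CPM in SN GV, 433, 574 and 579 in NSN GV, 42.3, 54.5, 51.3 and 57.1 in SN-MII and 47.5, 62.5 and 45.3 in NSN-MII oocytes. The groups did not overlap, and the change of −3.35 ± 0.15 was 10.2-fold (adjusted p = 2.3e-11).

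The largest rises without overlap ranged from 1.49 (Zfp423) to 1.72 (Zfp329) on the log2 scale, and 4 of the 6 carry a KRAB box. Zfp445 (chr9:122844529-122866006, minus strand), which maintains imprints together with Zfp57, had 26.4, 27.1 and 24.1 CPM in SN GV and 34.3, 4.25 and 25.6 in NSN GV oocytes. It had 77.1, 73.3, 62.3 and 78.5 CPM in SN-MII and 65.4, 101 and 80.7 in NSN-MII oocytes. One NSN GV oocyte, replicate 2, was far under the other 5, and all MII oocytes were above all GV oocytes. The rise was 1.72 ± 0.32, or 3.29-fold (adjusted p = 0.00013), and 1.48 without that oocyte. Zfp329, with 12 fingers and no KRAB match, had 3.95 to 7.84 CPM (median 5.29) in GV and 12.3 to 24.5 CPM (median 17.9) in MII oocytes (1.72 ± 0.27, adjusted p = 2.3e-05), and entered through MII alone. Zfp612 had 8.37 to 17.1 CPM (median 15.9) and 33.7 to 50.8 CPM (median 49.1) (1.62 ± 0.21, adjusted p = 4.3e-06). Both were higher in each MII oocyte than in any GV oocyte. Zfp60 had 48.5 to 159 CPM (median 126) and 279 to 426 CPM (median 322) (1.56 ± 0.22, adjusted p = 8.1e-06), with counts that were not whole in any library. Zfp46 had 29.0 to 74.8 CPM (median 57.6) and 110.4 to 188 CPM (median 169) (1.51 ± 0.20, adjusted p = 4.1e-06). Zfp423, a 27-finger partner of EBF transcription factors, had 4.87 to 19.8 CPM (median 14.6) and 25.6 to 50.5 CPM (median 36.0) (1.49 ± 0.28, adjusted p = 0.00014).

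NSN GV oocyte 2 was the lowest of the 6 GV oocytes for 31 of the 59 genes that rose. It was also the lowest for 14 of the 62 that fell and for 17 of the 56 that did not pass. Over the 59, its median difference from the other GV oocytes was −0.36 on the log2(CPM + 1) scale. The 59 were called with this oocyte included, and the counts of lowest values have no share over all genes beside them. Its median log2 difference was −0.157 for the 177 Zfp genes and 0.053 for the 7989 other genes. At the 0.05 quantile, its log2 difference was −1.49 for the 177 Zfp genes and −1.47 for the 7989 other genes. Without this oocyte, 55 of the 177 rose and 65 fell.

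**Figure D2:**
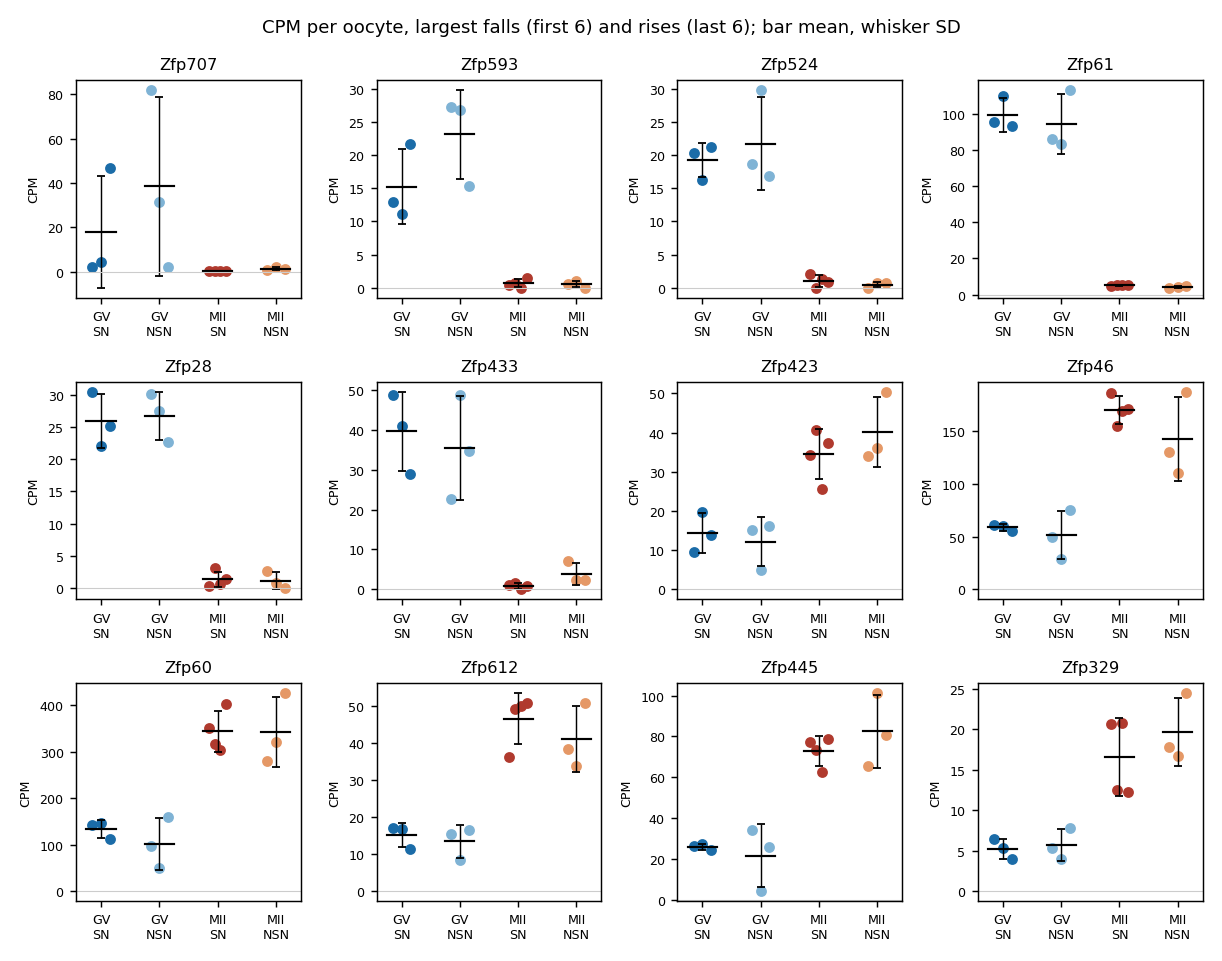
CPM in each oocyte (points) for the 6 largest falls and the 6 largest rises called without overlap between stages, with the group mean (bar) and SD (whisker). Zfp61 drops from 83.1 to 113 CPM in GV oocytes to 3.93 to 5.32 in MII oocytes, Zfp707 varies widely within both GV types, and the rising genes are low in NSN GV oocyte 2.

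Among genes with roles in RNA and the ribosome, the directions were mixed. Zfp106, an RNA-binding protein, had 59.3, 61.0 and 39.2 CPM in SN GV, 40.5, 24.7 and 69.8 in NSN GV, 110.3, 123, 113 and 149.7 in SN-MII and 117, 159 and 152 in NSN-MII oocytes, a rise of 1.44 ± 0.21 (adjusted p = 1.5e-05). Zfp638, a nuclear nucleic acid-binding protein of splicing speckles, rose by 1.42 ± 0.27 (adjusted p = 0.00016). Its GV oocytes had 135, 169.9 and 132 CPM (SN) and 128, 29.0 and 158 CPM (NSN), and its MII oocytes 286 to 382 CPM. NSN GV oocyte 2 was again the lowest. Zfp830, a splicing-associated protein needed by the early embryo, had 78.7 to 108 CPM in GV and 47.4 to 56.2 in MII oocytes and fell (−0.93 ± 0.14, adjusted p = 1.2e-05). Zfp598, the ubiquitin ligase that senses collided ribosomes, had 42.1 to 49.9 CPM in GV and 46.5 to 60.8 in MII oocytes and did not pass (0.20 ± 0.14, adjusted p = 0.21, 0.12 to 0.23 without 1 library), its sign turning with the scaling. Zfp207 (BuGZ), which loads the checkpoint protein BUB3 on kinetochores, had 187 to 275 and 202 to 297 CPM. Its difference of 0.02 ± 0.15 did not pass (adjusted p = 0.91). Its sign also turned with the scaling, and with library totals it was called lower (−0.28, edgeR adjusted p = 0.04). Of the ligases, Zfp91 (ubiquitin) had 5.63 to 12.8 CPM in GV and 18.4 to 31.8 in MII oocytes and rose (1.36 ± 0.24, adjusted p = 8.7e-05), and Zfp451 (SUMO) did not pass (−0.18 ± 0.19, adjusted p = 0.42), with −0.31 without NSN GV oocyte 2 and −0.10 without NSN GV oocyte 1. Zfp326, Zfp346 and Zfp622 of the same roles had mean counts of 18.4, 41.3 and 4.69 and were not members.

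Of the KRAB proteins with known retroelement or imprint targets, 3 rose, 1 fell and 1 did not pass. Zfp445 is given above. Zfp568, which represses a placental promoter of Igf2, had 24.4, 23.8 and 24.3 CPM in SN GV, 23.3, 14.5 and 28.6 in NSN GV, 68.6, 60.9, 41.3 and 53.3 in SN-MII and 76.7, 72.0 and 56.4 in NSN-MII oocytes. Its GV and MII oocytes did not overlap, and the rise was 1.42 ± 0.19 (adjusted p = 5.8e-06). Zfp708, which binds RMER19B elements, had 23.0 to 52.2 and 51.5 to 86.6 CPM (0.84 ± 0.19, adjusted p = 0.00087). Every 50-base stretch of its transcripts is found in another annotated gene too, and its exons overlap those of Gm28557 and Rslcan18, so the value may be that of several genes. Zfp932, a regulator of endogenous retroviruses, had 20.2 to 34.2 CPM in GV and 5.65 to 9.79 in MII oocytes and fell without overlap (−1.81 ± 0.20, adjusted p = 6.4e-07), with 55.5% of its stretches shared. Zfp809, which silences proviruses through their primer binding site, had 3.89 to 8.80 and 3.69 to 9.16 CPM, and its difference of 0.28 ± 0.30 did not pass (adjusted p = 0.43), with 0.17 without NSN-MII oocyte 2 and 0.41 without NSN-MII oocyte 1. Zfp819 had a mean count of 43.4 and was not a member.

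The transcription and chromatin genes were likewise mixed, with 4 called higher and 3 called lower. Zfp131, a BTB-domain factor, had 73.8 to 101 CPM in GV and 195 to 270.2 in MII oocytes and rose (1.33 ± 0.13, adjusted p = 2.2e-07). Zfp148, which binds GC-rich promoters, had 47.1 to 83.5 and 121 to 202 CPM and rose (1.28 ± 0.17, adjusted p = 4.6e-06). Zfp143, an activator of many housekeeping promoters, had 43.4 to 65.1 and 12.9 to 23.8 CPM and fell (−1.57 ± 0.18, adjusted p = 1.1e-06). Those 3 did not overlap between stages. Zfp281, a regulator of pluripotency genes, fell by 0.74 on the log2 scale (SE 0.26, adjusted p = 0.018), and Zfp335, a subunit of a histone methyltransferase complex, by 0.84 (SE 0.23, adjusted p = 0.0039). Zfp217, a corepressor subunit, rose by 0.70 ± 0.28 (adjusted p = 0.034), and Zfp644, a partner of G9a and GLP, by 0.72 ± 0.28 (adjusted p = 0.029). The calls of Zfp281, Zfp217 and Zfp644 lay near the threshold. Zfp217 did not pass without SN GV oocyte 1 or 3, NSN GV oocyte 2 or 3, SN-MII oocyte 1 or 3 or NSN-MII oocyte 1, with the lowest value (0.52) for the last. It also did not pass with library totals (0.41, adjusted p = 0.23), with limma at either pseudocount (adjusted p = 0.32 and 0.298) or without a filter on low counts (adjusted p = 0.058). Zfp644 did not pass without SN GV oocyte 1 or 3, NSN GV oocyte 1 or 3, SN-MII oocyte 1 or 3 or NSN-MII oocyte 1 or 2, with the lowest value (0.49) without NSN-MII oocyte 1, nor with library totals (0.46, adjusted p = 0.2). Zfp281 did not pass without NSN GV oocyte 1 (−0.56) or with the replicate number as a block (−0.65, adjusted p = 0.052). Zfp42 (Rex1), Zfp292, Zfp384 and Zfp711 had mean counts of 6.38, 7.38, 38.7 and 0.

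The corepressor that KRAB proteins recruit was followed in a list of 14 genes, of which 7 rose, 2 fell and 5 did not pass. Trim28 itself had 16.9 to 29.97 CPM in GV and 34.0 to 72.3 CPM in MII oocytes, a log2 change of 1.15 ± 0.21 (adjusted p = 0.00014). Atf7ip, the partner of SETDB1, rose by 1.55 ± 0.16 (adjusted p = 3.1e-07), and Setdb1 did not pass, with −0.34 ± 0.24 (adjusted p = 0.22). Smarcad1 and Morc3, both needed for retroelement silencing, rose by 1.45 ± 0.25 (adjusted p = 7e-05) and 1.46 ± 0.20 (adjusted p = 5.5e-06). Cbx1 rose by 0.65 ± 0.14 (adjusted p = 0.0005), while Cbx5, also a heterochromatin protein 1 gene, changed by −0.67 ± 0.16 (adjusted p = 0.0014). Uhrf1 rose by 0.61 ± 0.12 (adjusted p = 0.00032) and Dnmt1, the maintenance methyltransferase it recruits, changed by −0.86 ± 0.29 (adjusted p = 0.015), with overlap between stages. Chd4 rose by 0.91 ± 0.20 (adjusted p = 0.00072). Hdac1, Hdac2, Cbx3 and Chd3 did not pass, with log2 changes of −1.10, 0.24, −0.60 and 0.01. Among other finger families with a mean count of at least 50, 11 of 25 Zbtb genes rose and 5 fell, 1 of 6 Zscan genes rose and 3 fell, 2 of 7 Zkscan genes rose and 4 fell, and 7 of 10 Zfp genes with a letter after the number rose and none fell. No difference between these families and the numbered Zfp genes was tested.

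The question whether the 2 oocyte types mature alike can be asked of each Zfp gene. In SN oocytes alone 46 of 177 were called higher and 54 lower at MII (56.5%, with 56.3% of all genes), and in NSN oocytes alone 52 and 50 (57.6%, with 56.1%). Of these, 43 were called higher in both (24.3%, with 21.1% of all genes) and 43 lower in both (24.3%, with 26.8% of all genes), and none of the Zfp genes and 6 of all genes were called in opposite directions. A further 14 were called in SN oocytes only and 16 in NSN oocytes only, which by itself does not show a difference between the types. Among the other genes with the same mean count, 67.2% were called in SN oocytes and 67.2% in NSN oocytes. Of those other genes, 29.1% were called higher in both and 30.3% lower in both. Pearson's r of the 2 changes over the 177 genes was 0.93, a description, since the genes share their libraries. The interaction of type and stage called none of the Zfp genes and 2 (0.0176%) of 11375 genes by edgeR. At an unadjusted p under 0.05 it held 11 of 177 Zfp genes (6.21%) and 5.3% of all genes. DESeq2 called 0 of the 177 and 36 of 15898 genes. The smallest p were those of Zfp940, Zfp433 and Zfp68. Zfp940, a KRAB gene, fell by 2.73 in SN and by 1.36 in NSN oocytes on the log2 scale, a difference of 1.37 ± 0.48 (unadjusted p = 0.012, adjusted p = 0.74). Zfp433 changed by −5.45 in SN and −3.15 in NSN oocytes (2.296 ± 0.82, unadjusted p = 0.012, adjusted p = 0.75), and the difference was 1.49 without NSN-MII oocyte 1. Zfp68, a KRAB gene, changed by 0.04 in SN oocytes, which did not pass, and rose by 0.74 in NSN oocytes (0.70 ± 0.28, unadjusted p = 0.021, adjusted p = 0.81).

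**Figure D3:**
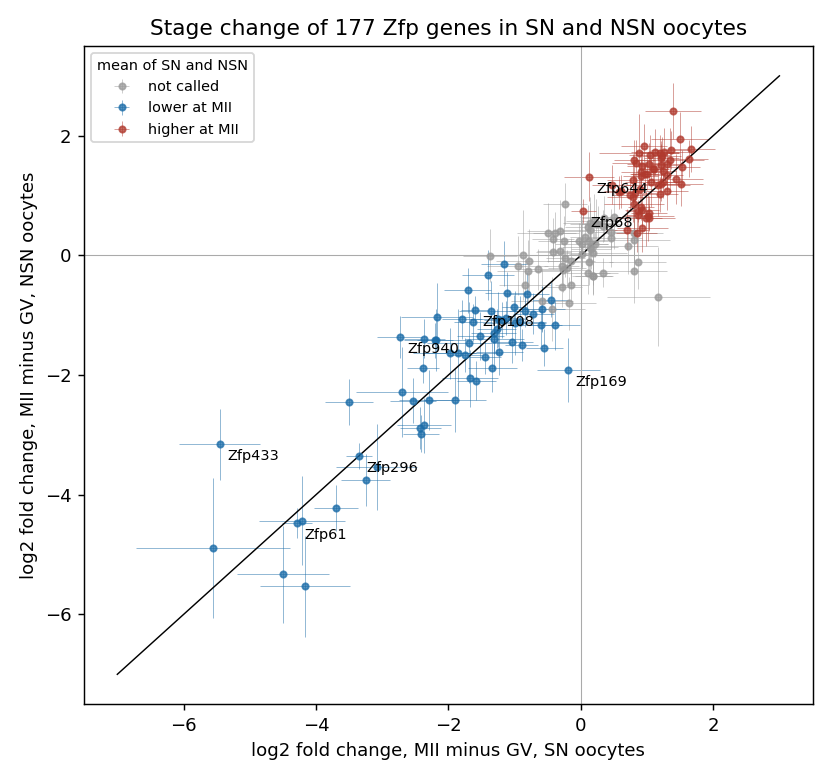
Log2 fold change from GV to MII in SN oocytes (horizontal) and NSN oocytes (vertical) for 177 Zfp genes, with standard errors. Colours give the call of the mean of both types and the line marks equal change. The genes lie along the line (r = 0.93), with Zfp433 and Zfp940 above it and Zfp169 below it.

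Between NSN and SN GV oocytes (3 against 3 libraries, 10839 genes), edgeR called none of the 177 Zfp genes and 0% of all genes, and DESeq2 called none. At an unadjusted p under 0.05 there were 4 Zfp genes (2.26%, all genes 1.69%), and 14 did not overlap in CPM (7.91%, all genes 6.03%). Zfp939, for which the annotation gives no coding transcript, had 63.0, 65.5 and 34.8 CPM in SN and 26.5, 33.2 and 20.9 in NSN GV oocytes (−0.99 ± 0.30, unadjusted p = 0.0088, adjusted p = 1). Zfp940 had 35.5, 29.5 and 19.8 and 13.4, 16.1 and 19.0 CPM (−0.79 ± 0.29, unadjusted p = 0.024, adjusted p = 1). Both were lower in every NSN than in every SN oocyte. Zfp574, with 18 fingers, was higher in NSN oocytes, with 66.2, 96.2 and 82.9 CPM in SN and 101, 117 and 115 in NSN oocytes (0.46 ± 0.19, unadjusted p = 0.04, adjusted p = 1). Zfp330, a nucleolar protein with 19.1% of its 50-base stretches shared with Gm7785, had 32.9, 31.1 and 36.6 and 42.3, 55.2 and 43.1 CPM (0.49 ± 0.22, unadjusted p = 0.049, adjusted p = 1). None of the 4 differences passed the adjustment.

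Between NSN-MII and SN-MII oocytes (3 against 4 libraries), 173 Zfp genes could be tested, since Zfp593, Zfp707, Zfp524 and Zfp28 were too low at MII. By edgeR none was called, beside 28 of 10028 genes (0.279%), and 20 Zfp genes had an unadjusted p under 0.05 (11.6%, all genes 9.39%). Likewise 20 did not overlap in CPM (11.6%, all genes 10.2%). DESeq2 called 221 of 15898 genes, 3 of them Zfp genes: Zfp108 higher and Zfp169 and Zfp521 lower in NSN-MII oocytes. Zfp108, a KRAB gene on chromosome 7, had 85.6, 84.4, 68.6 and 53.8 CPM in SN-MII and 125, 134 and 109.9 in NSN-MII oocytes, without overlap (0.75 ± 0.20, edgeR unadjusted p = 0.0027, adjusted p = 0.18). Its GV values were 231, 256 and 175 CPM (SN) and 185, 235 and 271 CPM (NSN), so it fell in both types. Zfp169, a 17-finger KRAB gene, had 22.3, 11.05, 19.1 and 20.7 CPM in SN-MII and 5.12, 8.54 and 1.52 in NSN-MII oocytes (−1.82 ± 0.50, edgeR unadjusted p = 0.0035, adjusted p = 0.2). Zfp521, a 27-finger relative of Zfp423, had 7.56, 16.4, 9.60 and 9.54 and 3.33, 5.20 and 1.52 CPM (−1.66 ± 0.49, edgeR unadjusted p = 0.0056, adjusted p = 0.23). In all 3 the MII groups did not overlap. Zfp68 was higher in NSN-MII oocytes, with 354, 326, 306 and 258 CPM in SN-MII and 414, 541 and 442 in NSN-MII oocytes (0.58 ± 0.16, edgeR unadjusted p = 0.0038, adjusted p = 0.2). Zfp277 was lower, with 128, 157, 145 and 224 and 82.0, 94.4 and 119 CPM (−0.74 ± 0.21, edgeR unadjusted p = 0.005, adjusted p = 0.22). Zfp715, a KRAB gene, had 1.36 to 4.62 CPM in SN-MII and 3.88 to 12.5 in NSN-MII oocytes, with overlap (1.55 ± 0.53, edgeR unadjusted p = 0.013, adjusted p = 0.33). Without NSN-MII oocyte 3, edgeR called Zfp108 alone of the Zfp genes.

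**Figure D4:**
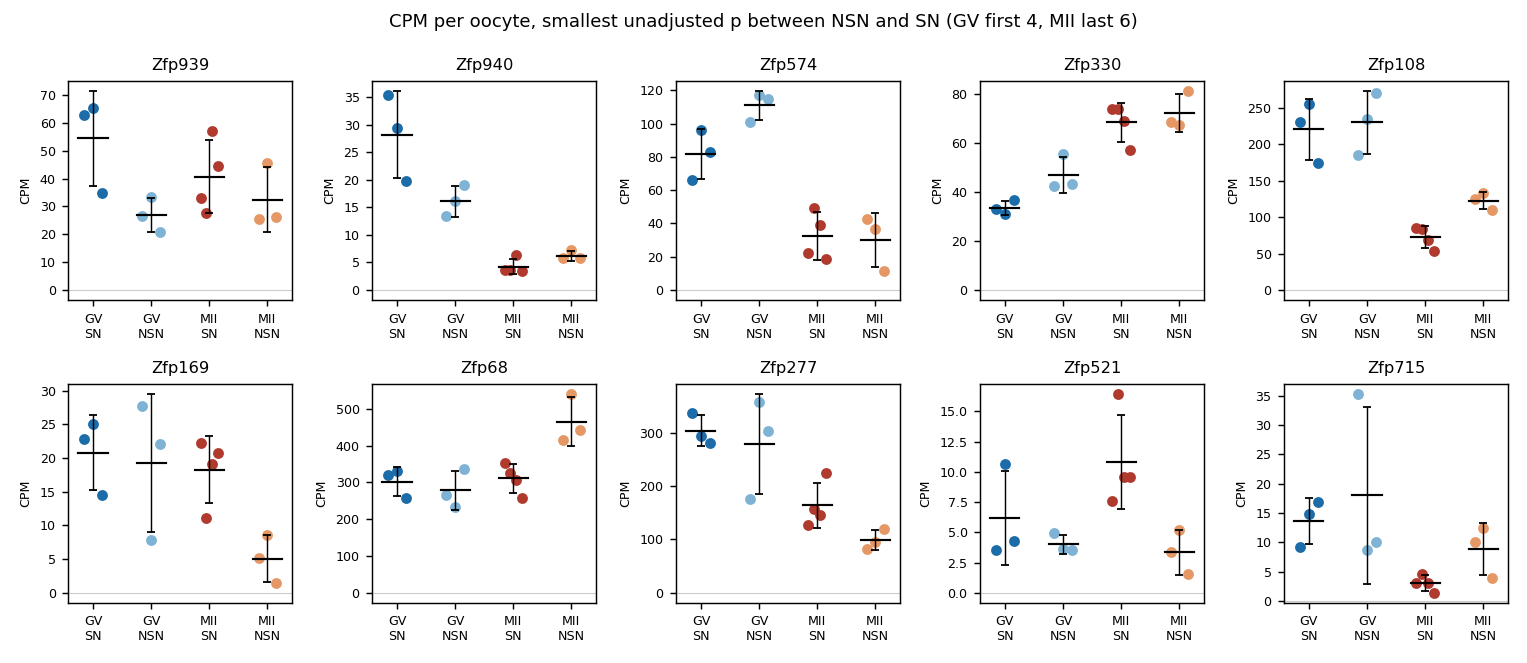
CPM in each oocyte (points), with mean (bar) and SD (whisker), for the 4 Zfp genes with the smallest unadjusted p between NSN and SN at GV (first 4 panels) and the 6 with the smallest at MII (last 6). The differences seen at 1 stage, such as 53.8 to 85.6 against 109.9 to 134 CPM for Zfp108 at MII, did not pass the adjustment in edgeR.

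The coding transcripts allowed the changes to be set beside features that played no part in the choice. A KRAB A box was found by a profile search in 100 of 176 Zfp genes with a coding transcript. Of these 100, 31 rose and 37 fell (median log2 change −0.09), and of the 76 without it 28 rose and 25 fell (median 0.15). The mean count divided them further. At or above the median count, 21 of 53 KRAB genes rose and 17 fell, and under it 10 of 47 rose and 20 fell. Genes without KRAB had 15 of 36 higher and 11 lower at or above the median count and 13 of 40 higher and 14 lower under it. By the number of fingers (classic C2H2 pattern, median 11, up to 31 in Zfp142), 8 of 14 genes with none in this pattern rose and 4 fell, and their median change was 0.80. With 1 to 4 fingers 11 of 28 rose and 9 fell, with 5 to 9 fingers 11 of 36 and 11, with 10 to 14 fingers 15 of 59 and 23, and with 15 or more 14 of 39 and 15. The 14 without a match include Zfp106, Zfp638, Zfp330 and Zfp957, which rose, and Zfp593 and Zfp830, which fell. These classes include the 31 genes that entered through GV alone and the 7 that entered through MII alone, whose directions are no result. All these counts are descriptions, and no difference between the classes was tested.

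A cytoplasmic polyadenylation element, the U-rich site by which stored oocyte mRNAs gain a longer tail, was looked for as TTTTAT or TTTTAAT on the sense strand in the last 100 bases of the transcript. It was present in 27 of 164 Zfp genes with a long enough 3′ untranslated region (16.5%) and in 19.96% of 10511 genes tested. Of the 27, 10 rose and 5 fell, with a median log2 change of 0.29, and of the 137 without it 44 rose and 53 fell, with a median of −0.09. These counts include genes that entered through 1 stage alone, such as Zfp715. Over all genes tested the medians were 0.64 with the element and −0.25 without it, with 1012 of 2098 higher and 406 lower, and 2433 of 8413 higher and 3317 lower. The element stood in genes of either direction, as 2 ends show, with the element in capitals (mm10, chr14:79212362-79212391, minus strand, and chr1:136629954-136629983, plus strand). Zfp957 rose by 0.77 and Zfp281 fell by 0.74 on the log2 scale.
Zfp957: aatTTTTATtaaactaataaaatttatttt
Zfp281: aacTTTTATtgtgtgtactgaatactacat

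Zfp genes lie in runs along the chromosomes, with 39 of the 177 on chromosome 7 and 20 on chromosome 17. Runs of at least 5 members with gaps of at most 500 kb, defined after the values were known, numbered 7. The counts below include genes that reached the minimum mean count at 1 stage alone, whose directions are no result. In 1 run on chromosome 7 (mm10, chr7:29768552-30107622) all 10 genes passed, the first 6 in genome order lower and the last 4 higher. Zfp84, Zfp790, Zfp940, Zfp420, Zfp27 and Zfp383 fell by 1.09, 1.80, 2.05, 0.65, 3.31 and 0.88 on the log2 scale. Zfp940 and Zfp27 entered through GV alone, so they had to be lower at MII. Zfp74, Zfp568, Zfp82 and Zfp260 rose by 1.23, 1.42, 0.61 and 0.83. At the boundary, Zfp383 had 21.7 to 40.3 CPM in GV and 9.54 to 25.8 in MII oocytes, with overlap, and its neighbour Zfp74 had 18.7 to 27.4 and 38.2 to 65.7 CPM, without. Zfp82 shares 94.4% of its 50-base stretches with other genes. The median of the shared stretches over the run was 0.0451%, so most of these values are of single genes.

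The other run on chromosome 7 (chr7:24134169-24316666) held Zfp61 and had 4 genes lower, 1 higher (Zfp235, 1.32 ± 0.17) and 1 that did not pass. On chromosome 17 (chr17:21008903-22456689), 6 of 10 KRAB genes rose and none fell. Of the 6, at least Zfp983 entered through MII alone, so that its direction is no result. The 6 follow each other, from Zfp983 (1.35) to Zfp943 (0.81), and Zfp820 had the largest fitted rise of all 177 (1.90 ± 0.32, adjusted p = 5.3e-05), with overlap between 2.15 to 7.91 CPM in GV and 7.32 to 20.97 in MII oocytes. The GV range of Zfp820 reached lower than that of Zfp329, which entered through MII alone. The direction and rank of Zfp820 are therefore not taken as a result. On chromosome 4 (chr4:147361303-147848366), 5 of 6 rose, by 0.88 to 1.41, but their counts were not whole in any library and 11.9% to 75.9% of their 50-base stretches occur in other genes, so that they are not 5 independent values. A second run on chromosome 17 (chr17:32965814-33631779) had 3 lower of 5, and that on chromosome 6 (chr6:47835661-48048911) 3 lower of 5. The run on chromosome 13 (chr13:67069399-67755228) had 1 higher and 2 lower of 6. Whether neighbours move together more than other genes was not tested.

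**Figure D5:**
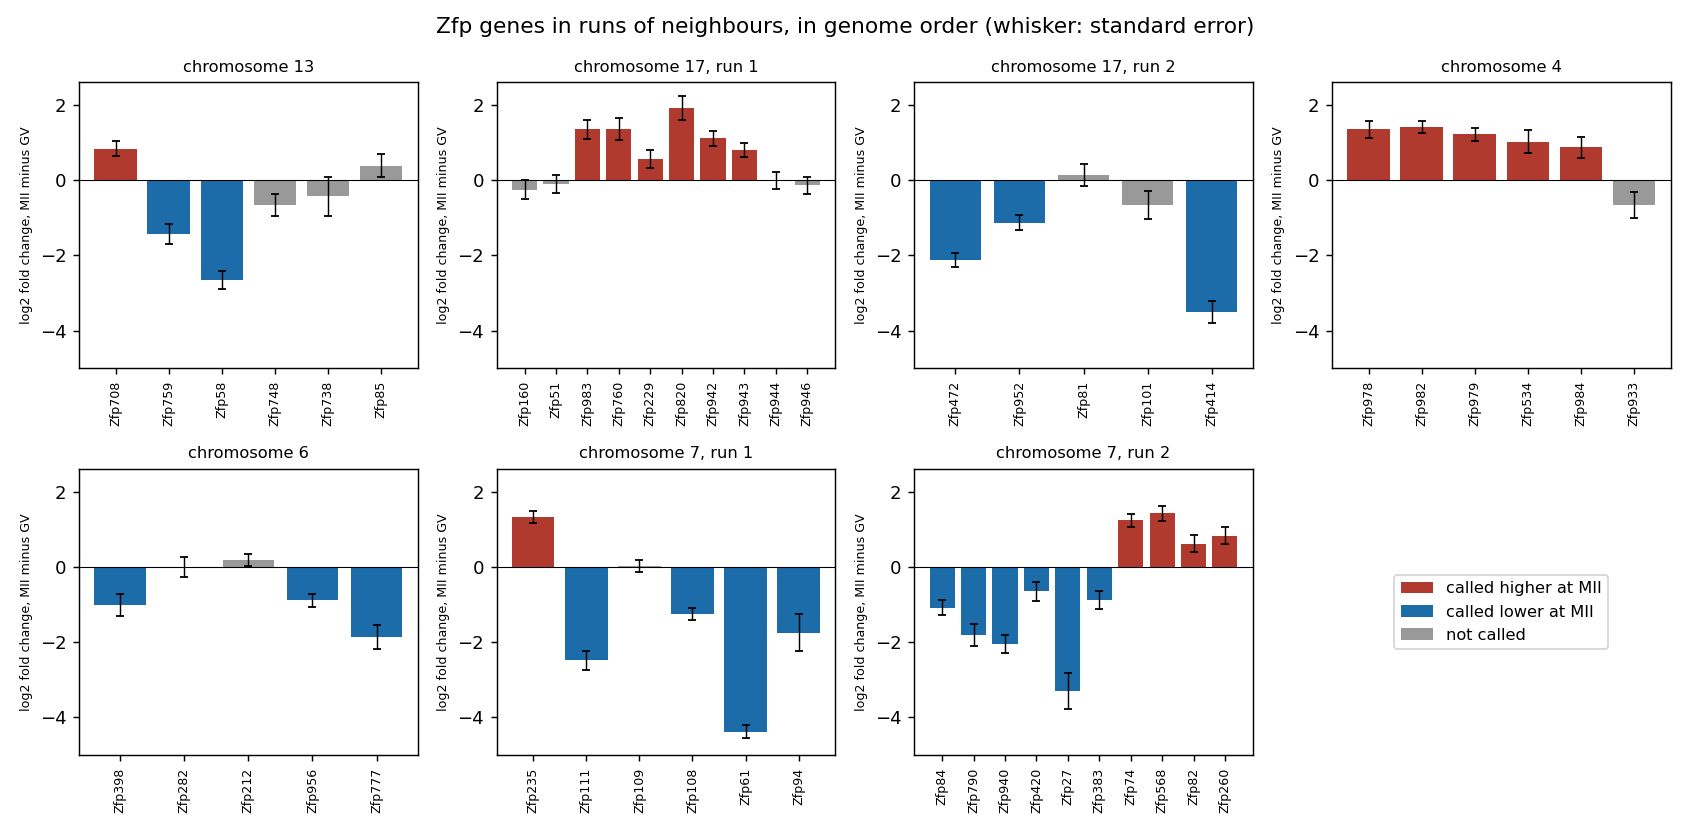
Log2 fold change from GV to MII (bars) with standard error (whiskers) for Zfp genes in 7 runs of neighbours, in genome order. In the second run of chromosome 7 the first 6 genes were called lower and the last 4 higher, and on chromosome 4 the 5 genes called higher share sequence with other genes. Of those first 6, Zfp940 and Zfp27 reached a mean count of 50 at GV only.

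Setting aside shared sequence gave a similar split. Of the 91 genes with whole counts in every library 31 rose and 35 fell, and of the 143 with under 10% of shared stretches 47 rose and 51 fell. The genes just inside the mean count of 50 were Zfp521 (51.2), Zfp526 (51.7) and Zfp738 (51.7), and those just outside were Zfp583 (49.5), Zfp868 (49.1) and Zfp870 (47.1). With a minimum of 20 the genes number 231.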

How the data were processed

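Libraries were made by the authors from single oocytes by SMART-seq2 and were processed, per the labels, with Trim Galore 0.4.4, Bowtie2 2.3.5 and RSEM 1.2.28 against mm10, with DESeq2 1.20.0 named as well. The deposited files were 2 tables of expected counts (18939 symbols) and a table of FPKM (49686 symbols), both made by the authors. Expected counts were rounded to whole numbers here. No column of per-sample values was left unused. Neither molecular identifiers nor strand are stated for the counting.

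Genes were tested with edgeR 4.0.16 in R 4.3.3 (filterByExpr, TMM, robust quasi-likelihood F-test, Benjamini-Hochberg threshold 0.05). The stage contrasts and the interaction came from 1 fit of all 13 libraries without covariates, and NSN minus SN from the 6 GV or the 7 MII libraries alone. CPM used the TMM factors of the 13-library fit. FPKM served for levels between genes and for the group levels of the 5 highest, and was tested only with limma 3.58.1 (pseudocount 1 or 0.1, mean FPKM of at least 1). DESeq2 1.42.0 was a further alternative. Features came from GENCODE M21 transcripts on mm10, as RefSeq proteins were not used here: KRAB A boxes by a profile search (pyhmmer 0.12.3, E-value 0.001) and fingers as a pair of cysteines and a pair of histidines separated by 12 residues.

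Named were genes of known role from a fixed list, the 6 largest rises and falls called without overlap, the smallest p of each comparison of types (4 at GV, 6 at MII, 3 for the interaction), the 5 highest mean FPKM and 3 symbols on each side of the mean count of 50. Members of runs and genes named beside features were chosen after their values were seen. The members and lists were chosen with earlier results of these data known. On simulated counts, the stage fit (11102 genes) called 103 of 103 genes changed 4-fold and 58 of 97 changed 2-fold. The fit of NSN minus SN (10650 genes at GV and 10862 at MII) called 106 of 116 and 93 of 102 genes changed 4-fold, and 14 of 84 and 12 of 98 changed 2-fold. Of the unchanged genes, 16, 8 and 4 were called in the stage, GV and MII fits. The simulation gave every gene the same dispersion and changed only a small set of well-counted genes. The real genes differ in spread, so these shares need not hold for them.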

Additional observations from a re-analysis of the deposited data

Results flagged for a closer look

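Groups of 4 SN-MII oocytes were examined for a single distant value in the 45 named Zfp genes, and 2 stood apart by Dixon's criterion, where chance gives about 1 in 20. For Zfp612, 1 SN-MII oocyte had 36.2 CPM and the others 49.1, 49.95 and 50.8. For Zfp940, 1 SN-MII oocyte had 6.31 CPM and the others 3.41, 3.58 and 3.60. The other groups held 3 oocytes and were not examined in this way.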

How the results depend on the processing

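Members called between the stages (59 higher and 62 lower) were within 1.5 times those counts under 22 of 23 alternatives, with 49 and 73 for library totals as the extreme of the scalings. Restricting the list to the 91 genes with whole counts left 31 and 35, in SN oocytes 28 and 30 and in NSN oocytes 28 and 27, by construction. Leaving out 1 library gave 53 to 59 higher and 59 to 65 lower, in SN oocytes 33 to 51 and 50 to 57, the 33 without SN GV oocyte 3, and in NSN oocytes 45 to 52 and 45 to 53. With library totals the median log2 change was −0.279 (SN −0.276, NSN −0.275). In SN oocytes it was −0.209 with limma on log2(FPKM + 0.1), −0.177 with log2(FPKM + 1) and −0.213 over the genes with a mean count of at least 20. In NSN oocytes it ranged from −0.094 to 0.212 without 1 library. Between NSN-MII and SN-MII oocytes DESeq2 called 1 higher and 2 lower (221 of all 15898 genes), and leaving out 1 library gave 0 to 1 higher by edgeR. Among the named genes, the sign turned for 3 that did not pass in the reported fit. Zfp598 had −0.11 and Zfp809 −0.0123 with library totals. Zfp207 had −0.0204 with DESeq2, −0.0214 with its size factors and −0.18 with limma at both pseudocounts. With library totals it had −0.28 and was called lower (edgeR adjusted p = 0.04). With the replicate block it had −0.0379, and without 1 library −0.0484 to 0.0965. Over all Zfp genes, 1 called gene had a reversed sign between the stages with limma at each pseudocount. The cause was not tested. Of 906 values for single named genes under alternatives, 868 kept direction and side of the threshold, 22 lost the call and 4 gained it. Replicate numbers come from the labels, which do not say whether same-numbered oocytes shared an animal or day. Of 18 same-numbered pairs 3 had correlated deviations over 0.1 (range −0.505 to 0.199). With 3 or 4 oocytes per group, these values cannot decide whether same-numbered oocytes shared a female or culture. With the replicate block 57 rose and 60 fell (SN 40 and 50, NSN 50 and 51), and none was called in the interaction or between the types. Genes with 0 to 17 counts per MII oocyte (Zfp593, Zfp524, Zfp707) have folds limited by depth.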
